A study of Homo sapiens with 4 samples.

Results

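The genes described here encode the subunits of the oxidative phosphorylation complexes in the inner mitochondrial membrane. They were chosen by name, with no use of their levels: symbols of the NDUFA, NDUFB, NDUFC, NDUFS and NDUFV series (complex I), SDHA to SDHD (complex II), the UQCR series (complex III), the COX4 to COX8 series (complex IV), the ATP5F, ATP5M and ATP5P series (complex V) and the mitochondrially encoded MT-ND, MT-CYB, MT-CO and MT-ATP genes. Of the 27356 genes in each deposited table, 110 matched these patterns. Leaving out 13 pseudogenes left 97 members, of which 3 encode no subunit: the read-through transcript ATP5MF-PTCD1, the antisense RNA UQCRB-AS1 and the divergent transcript UQCRFS1-DT, each with at most 5 counts in any library. The other 94 comprise 81 nuclear and 13 mitochondrial genes. NDUFA4 carries a complex I name but encodes a subunit of complex IV, and it is counted there.

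The data are RNA sequencing of polyadenylated RNA from 4 libraries of HaCaT, a spontaneously immortalised human keratinocyte line. Plated to a density of 50%, the M5 cells were exposed for 72 h to the M5 mix, which holds oncostatin M, TNF-α and the interleukins IL-1α, IL-17 and IL-22, every one of them at 10 μg/L, and the control cells received phosphate-buffered saline (PBS) for the same time. Each group has 2 libraries. Both M5 libraries carry a treatment tag naming 25 μM of an agent abbreviated DAC, whereas their titles and the protocols name M5, and the titles were followed. All values come from 1 cell line, and the labels do not say whether the libraries of a group were separate cultures, so p-values measure no more than library-to-library spread, part or all of which may be technical.

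The respiratory chain passes electrons from NADH (complex I) and succinate (complex II) through ubiquinone, complex III and cytochrome c to oxygen at complex IV, and complexes I, III and IV pump protons across the membrane. Complex V, the ATP synthase, lets the protons flow back through a rotating ring of c subunits and uses the rotation to make ATP. All complexes except II mix subunits from both genomes: mitochondrial DNA encodes a few hydrophobic core subunits, transcribed as long polycistronic RNAs from both strands, and the nucleus encodes the rest, whose mRNAs are made and translated outside the organelle. Basal keratinocytes respire, and they lose their mitochondria as they cornify.

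The M5 libraries held 18992988 and 19749612 counts and the PBS libraries 15858644 and 16051974. Levels are FPKM (fragments per length of gene, relative to the library's total) scaled by the TMM factors of edgeR, which were 0.946 and 0.952 in M5 and 1.05 and 1.05 in PBS. All 12 keratinocyte markers examined were above a mean of 1 FPKM, 9 of them called higher and 3 lower in M5, with summed levels of 5334 and 4925 in M5 against 3623 and 3595 in PBS. Fibroblast markers summed to at most 0.729 and endothelial markers to at most 0.655 in any library, and no marker list other than that of keratinocytes passed 5.45, the leukocyte sum of an M5 library, of which CD14 made up 5.36. The part of the marker differences in the results below was not tested.

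Most of the nuclear-encoded subunits were slightly lower in M5, and the mitochondrially encoded ones split into lower and higher genes. With edgeR's quasi-likelihood test over the 10809 genes with a mean of at least 1 FPKM, 55.9% of all genes were called at an adjusted p under 0.05, 28.8% higher and 27.1% lower in M5, so a call by itself is common in this comparison. Of the 59 nuclear members tested, 31 (52.5%) fell, 1 rose and 27 did not pass. Of the 13 mitochondrial genes 6 (46.2%) fell, 2 rose and 5 did not pass. Without PBS replicate 2, 20 nuclear genes were called lower, and the mitochondrial genes called lower numbered 1 without PBS replicate 1 and 3 without PBS replicate 2. The nuclear median log2 fold change was -0.21, with 56 of 59 values below zero, and the mitochondrial median was -0.12, with 9 of 13 below zero. Over all tested genes the median was -0.01, the quartiles were -0.29 and 0.30, and 51.2% lay below zero. In bulk RNA a lower level in every cell and a lower level in part of the cells cannot be told apart. The share of all tested genes whose groups do not overlap is not given here. Where a lack of overlap is stated below, it only describes the values.

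**Figure D1:**
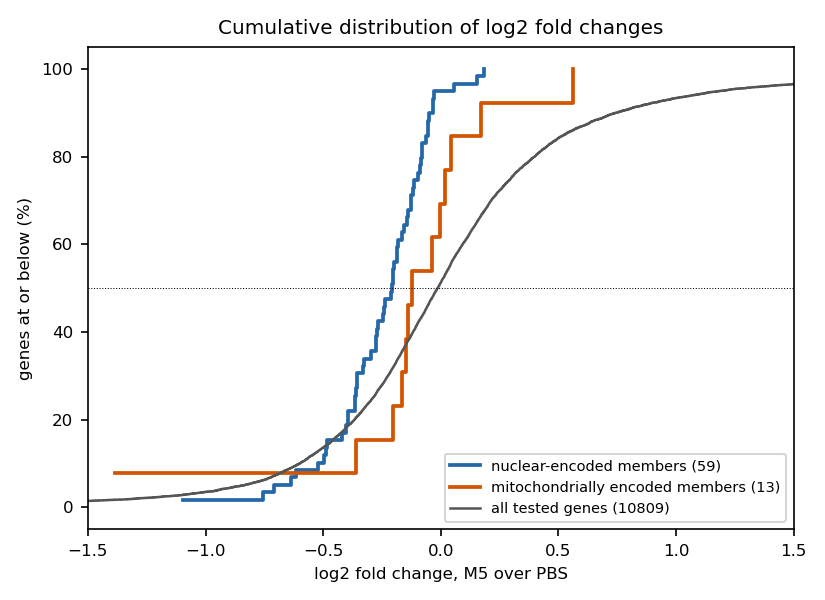
Cumulative share of genes (vertical axis, percent) at or below each log2 fold change of M5 over PBS (horizontal axis) for nuclear members, mitochondrial members and all tested genes. The nuclear curve crosses 50% at -0.21 and the mitochondrial curve at -0.12, against -0.01 for all genes.

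The nuclear median lay below that of all tested genes under each scaling tried. When libraries were scaled by their total counts in place of TMM, the median of all genes moved to -0.16, that of the nuclear members to -0.36 and that of the mitochondrial members to -0.27, and the share of all genes called lower was 41.3%, so values are best read relative to the median of all genes. Relative to it, the nuclear median was -0.20 and the mitochondrial median -0.11 on the log2 scale. Nuclear members are short genes: 42 of the 59 lie in the shortest of 3 equal classes of gene length, where the median of all genes was -0.06 and 20 of the 42 were called lower. In the middle class 6 of 9 and in the longest class 5 of 8 were called lower. Of all genes in the shortest, middle and longest class 24.2%, 28.2% and 28.9% were called lower. With an offset for gene length in each library, 24 nuclear members were called lower and their median was -0.16. Of all tested genes 26.3% were then called lower, with a median of -0.001.

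The 2 genomes differ far more in level than in response. Per library, the 13 mitochondrial genes together reached 34935 and 37658 scaled FPKM in M5, against 39444 and 37893 in PBS. The 81 nuclear genes together reached 2119 and 2191 in M5, against 2457 and 2536 in PBS. The groups did not overlap in either sum, although the mitochondrial sum of M5 replicate 2 came close to that of PBS replicate 2, and the M5 mean was 93.9% of the PBS mean for the mitochondrial genes and 86.3% for the nuclear genes. The ratio of the mitochondrial to the nuclear sum was 16.5 and 17.2 in M5, against 16.1 and 14.9 in PBS. The ratio of the medians over genes ran the other way, at 81.4 and 88.2 in M5 against 97.1 and 87.3 in PBS with overlapping libraries, so the balance between the genomes has no direction that holds for both summaries. As a share of all counts, the mitochondrial genes made up 3.42% and 3.73% in M5, against 4.29% and 4.09% in PBS, and the nuclear genes 0.477% and 0.506% in M5, against 0.646% and 0.661% in PBS. With 2 libraries a group an exact permutation test of such a ratio cannot reach 0.05, and none was run.

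**Figure D2:**
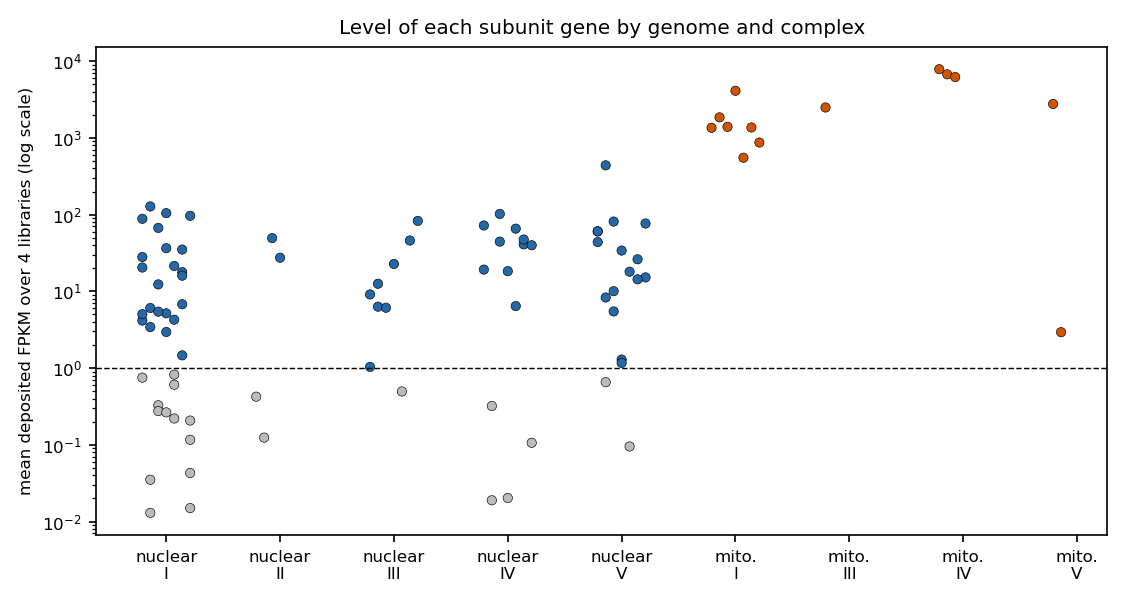
Mean deposited FPKM over the 4 libraries (log axis) of each subunit gene, by genome and complex. Filled colours are tested genes, grey points are genes below the dashed line at 1 FPKM, and points under 0.01 FPKM are drawn at 0.01. Nuclear genes span from 0.013 to 439 FPKM and all mitochondrial genes except MT-ATP8 lie above them.

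Not every nuclear subunit could be tested. The mean of 22 of the 81 was below 1 FPKM, between 0.013 and 0.821, with at most 175 counts in a library. Among them are obligatory subunits as well as tissue isoforms. SDHA, the flavoprotein of complex II, had 40 and 64 counts in M5, against 85 and 65 in PBS. SDHB, its iron-sulphur partner, had 6 and 9 counts in M5, against 7 and 5 in PBS. COX5B, a subunit of every complex IV, had 1 and 0 counts in M5, against 0 and 1 in PBS, and NDUFB10 of complex I had 0 in both M5 libraries and 0 and 1 in PBS. The membrane anchor SDHC, which assembles with SDHA and SDHB, was at 46.1 to 52.1 scaled FPKM in the 4 libraries. In the GENCODE 29 annotation, 14 of the 22 untested and 31 of the 59 tested nuclear genes share exon bases with another gene, with a median of 11.1% of exon bases in the untested and 0.0835% in the tested. In that annotation COX5B, NDUFB10, SDHA and SDHB share none. For some genes the length behind the deposited FPKM differs from the GENCODE 29 exon bases. It was 1960 against 14160 for SDHC and 8703 against 8383 for SDHA. The shares of exon bases given here therefore describe GENCODE 29 and need not hold for the genes as counted. Why these values are low was not tested, and no change is read from them. Isoforms of other tissues were also low: COX4I2, COX6B2 and COX7A1 were all below 1 FPKM, whereas COX4I1 was at 68.3 and 74.1 in M5 against 73.5 and 72.3 in PBS and COX7A2 at 41.2 and 44.7 in M5 against 44.8 and 46.6 in PBS, neither of them called.

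**Figure D3:**
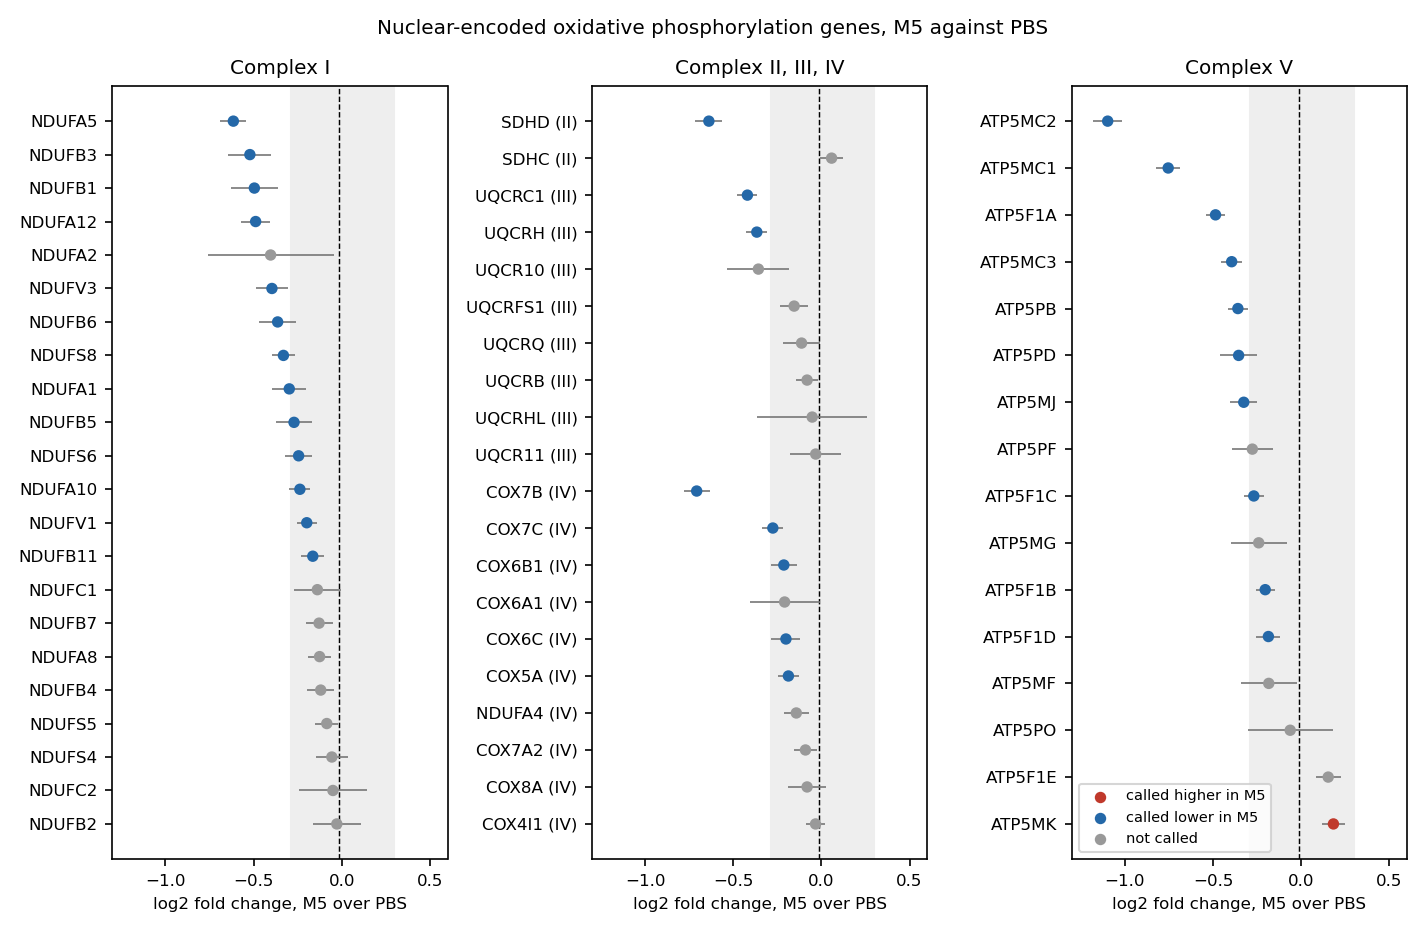
Log2 fold change of M5 over PBS (horizontal axis) for the tested nuclear genes, by complex, with 1 gene left out, with its standard error as a bar and colour marking calls at an adjusted p under 0.05. The grey band spans the quartiles of all tested genes, -0.29 to 0.30, and the dashed line is their median, and ATP5MK, ATP5F1E and SDHC are the only points above zero.

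Complex I is the entry point for NADH. Of its 36 nuclear subunits 23 were tested, of which 13 fell and none rose, with a median of -0.24 and all 23 values below zero. Among all tested genes 27.1% were called lower and 28.8% higher. The complex I calls included 11 of the 20 tested accessory subunits. Among the core subunits, which include the carriers of the flavin and of the iron-sulphur clusters, NDUFS8 was at 17.8 and 19.9 in M5 against 24.3 and 23.2 in PBS (log2 fold change -0.33, SE 0.07, edgeR adjusted p = 0.000341). NDUFV1, which binds NADH and the flavin, was at 31.6 and 33.4 in M5 against 37.1 and 37.4 in PBS (log2 fold change -0.20, SE 0.06, edgeR adjusted p = 0.00644). The groups did not overlap for either gene, but NDUFV1 was not called without PBS replicate 1 or without PBS replicate 2.

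The largest fall of complex I was that of NDUFA5, an accessory subunit of the matrix arm (ENSG00000128609, chromosome 7, 123536997 to 123558255 on the minus strand). It was at 3.15 and 3.34 in M5 against 5.10 and 4.85 in PBS. Both M5 libraries lay well below both PBS libraries, 1.53-fold lower by the fit (log2 fold change -0.61, SE 0.07, edgeR adjusted p = 8.55e-07). NDUFB3, in the membrane arm, fell by 0.52 on the log2 scale (SE 0.12), with 9.73 and 10.3 in M5 against 12.6 and 16.1 in PBS, and its call was lost without PBS replicate 2. NDUFB1, also in the membrane arm, fell by 0.50 (SE 0.14), with 5.26 and 5.90 in M5 against 7.95 and 7.79 in PBS. The most abundant tested subunit, NDUFS5, was at 128 and 119 in M5 against 132 and 130 in PBS and was not called. NDUFA2, the least abundant tested one, had overlapping groups, with 0.830 and 1.66 in M5 against 2.03 and 1.28 in PBS. Of exon bases, 19.8% in NDUFB3 and 44.9% in NDUFB11 are shared with other genes. The called falls in complex I ran from 0.16 for NDUFB11, whose call was lost under 8 of the alternatives tried, among them leaving out M5 replicate 1 or either PBS library, to 0.61 for NDUFA5.

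Complex II, the succinate dehydrogenase that also serves the citric acid cycle, is wholly nuclear. Of its membrane anchors SDHD was called lower and SDHC was not called. SDHD (ENSG00000204370, chromosome 11, 112086773 to 112120013 on the plus strand) was at 19.2 and 23.2 in M5 against 33.1 and 32.9 in PBS. Neither M5 library came near the PBS libraries, and the log2 fold change was -0.64 (SE 0.08, edgeR adjusted p = 8.19e-07). SDHC, its partner in the membrane, was at 52.1 and 48.8 in M5 against 46.1 and 50.8 in PBS, with overlapping groups, a log2 fold change of 0.06 (SE 0.07) and an edgeR adjusted p of 0.480. The difference between SDHD and SDHC was not tested. Of the exon bases of SDHD 12.2% are shared with other genes, the import factor TIMM8B among them, and the library kit does not mark strand, so reads in that stretch cannot be assigned to either gene.

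Complex III passes electrons from ubiquinol to cytochrome c, and it had the lowest share of nuclear calls. Of its 8 tested genes 2 (25%) fell, with a median of -0.13. That share is near the 27.1% called lower among all tested genes. UQCRC1, a core subunit (ENSG00000010256, chromosome 3, 48599002 to 48610976 on the minus strand), was at 19.1 and 19.4 in M5 against 25.9 and 25.7 in PBS. The replicates lay close together in both groups, and the fall was 0.42 on the log2 scale (SE 0.06, edgeR adjusted p = 3.90e-06). The hinge protein gene UQCRH, which helps cytochrome c to dock, was at 72.7 and 70.9 in M5 against 90.2 and 94.9 in PBS (log2 fold change -0.37, SE 0.06, edgeR adjusted p = 4.10e-05). Its copy UQCRHL, at 1.23 and 0.805 in M5 against 1.07 and 1.03 in PBS, encodes a near-identical protein, and how reads shared by both were counted is not given in the sources used here. UQCRFS1, the Rieske iron-sulphur protein, was at 38.4 and 48.2 in M5 against 47.6 and 48.9 in PBS. M5 replicate 1 stood below both PBS libraries and M5 replicate 2 between them, and the gene was not called (log2 fold change -0.15, edgeR adjusted p = 0.102), although it was called lower under 6 alternatives, among them library totals, at -0.31, and leaving out M5 replicate 2, at -0.33. CYC1, the cytochrome c1 gene that the name patterns leave out, fell by 0.36, with 120 and 118 in M5 against 156 and 148 in PBS.

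Complex IV reduces oxygen. Of 10 tested nuclear genes 5 fell and none rose, against 27.1% lower and 28.8% higher among all tested genes. The median was -0.19 and all 10 values were below zero. COX7B, a small subunit needed for assembly of the complex (ENSG00000131174, chromosome X, 77899438 to 77907373 on the plus strand), was at 14.0 and 13.4 in M5 against 22.1 and 22.7 in PBS. Both groups were tight and apart by 1.63-fold (log2 fold change -0.71, SE 0.07, edgeR adjusted p = 1.33e-07). COX7C, another small membrane subunit, fell by 0.28 (SE 0.06), with 58.7 and 59.3 in M5 against 69.1 and 73.8 in PBS. COX6B1, which faces the intermembrane space, fell by 0.21 (SE 0.07), with 37.4 and 38.0 in M5 against 45.5 and 41.9 in PBS. COX5A, the most abundant nuclear gene of the complex, fell by 0.19 (SE 0.06), with 91.8 and 98.4 in M5 against 108 and 108 in PBS, and COX6C fell by 0.20 (SE 0.08). The calls of COX6B1 and COX5A were each lost under 5 alternatives and that of COX6C under 7: COX6B1 without PBS replicate 1, COX5A without either PBS library and COX6C without M5 replicate 1 or PBS replicate 2, among others. COX4I1, COX6A1, COX7A2, COX8A and NDUFA4 were not called.

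Beside 27.1% lower and 28.8% higher among all tested genes, complex V had 10 lower and 1 higher of 16 tested, with a median of -0.27. It held both the largest fall and the only called rise of the nuclear members. Its c ring stood lowest. The mature c subunit is the same protein from 3 genes, ATP5MC1, ATP5MC2 and ATP5MC3, which differ in the targeting sequence that is cut off, and all 3 fell. ATP5MC2 (ENSG00000135390, chromosome 12, 53632726 to 53677408 on the minus strand) was at 8.59 and 10.4 in M5 against 20.6 and 20.02 in PBS, 2.14-fold lower (log2 fold change -1.10, SE 0.08, edgeR adjusted p = 1.53e-09). ATP5MC1 (ENSG00000159199, chromosome 17, 48892765 to 48895871 on the plus strand) was at 19.0 and 19.4 in M5 against 31.0 and 33.7 in PBS, 1.69-fold lower (log2 fold change -0.75, SE 0.07, edgeR adjusted p = 2.04e-08). ATP5MC3, the most abundant of them (ENSG00000154518, chromosome 2, 175176258 to 175184607 on the minus strand), was at 37.7 and 37.4 in M5 against 47.1 and 51.6 in PBS, 1.31-fold lower (log2 fold change -0.39, SE 0.06, edgeR adjusted p = 1.80e-05). In all 3 genes every M5 library was below every PBS library, and the fitted fall was larger the lower the level of the gene in PBS.

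Together the 3 c subunit genes gave 65.3 and 67.1 scaled FPKM in M5, against 98.7 and 105 in PBS. The share of ATP5MC2 in that sum was 13.2% and 15.4% in M5, against 20.9% and 19.0% in PBS, again without overlap. These shares compare mRNA levels per length only. ATP5MC2 and ATP5MC3 share 6.99% and 7.18% of their exon bases with other annotated genes, and ATP5MC1 shares none.

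The F1 head, which carries the catalytic sites, fell in 4 of its 5 genes, against 27.1% lower among all tested genes. Its median was -0.20. ATP5F1B, the catalytic beta subunit and the most abundant nuclear member, was at 391 and 421 in M5 against 460 and 474 in PBS, log2 fold change -0.20 (SE 0.05, edgeR adjusted p = 0.00316), which was not called without PBS replicate 2. ATP5F1A, the alpha subunit that alternates with beta in the head, was at 48.4 and 51.5 in M5 against 68.9 and 71.0 in PBS, log2 fold change -0.49 (SE 0.05, edgeR adjusted p = 3.11e-07). The groups were apart for both genes, and more widely for ATP5F1A. Of the central shaft, ATP5F1C fell by 0.27 and ATP5F1D by 0.19, the second a call lost under 6 alternatives, M5 replicate 1 or PBS replicate 1 left out among them. ATP5F1E, the epsilon subunit of the same shaft, was at 18.7 and 19.3 in M5 against 15.8 and 18.4 in PBS and was not called (log2 fold change 0.15, edgeR adjusted p = 0.0737), but it was called higher without M5 replicate 1 and without PBS replicate 2.

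In the peripheral stalk, which holds the head still, 2 of 4 genes fell, against 27.1% lower among all tested genes. ATP5PB fell by 0.36, with 51.4 and 53.7 in M5 against 67.8 and 67.1 in PBS. ATP5PD fell by 0.35, with 7.80 and 6.69 in M5 against 8.92 and 9.59 in PBS. The call of ATP5PD was lost without M5 replicate 2 and without PBS replicate 2. ATP5PO was not called, with 1.11 and 1.17 in M5 against 1.11 and 1.27 in PBS. Of exon bases, 19.1% in ATP5PD and 23.2% in ATP5F1E are shared with other genes. Of the small membrane subunits that help the synthase to form dimers, ATP5MJ fell by 0.33 and ATP5MK (ENSG00000173915, chromosome 10, 103389041 to 103396492 on the minus strand) rose. ATP5MK was at 82.0 and 81.2 in M5 against 69.3 and 74.5 in PBS. The groups did not overlap, but the rise was small (log2 fold change 0.18, SE 0.07, edgeR adjusted p = 0.0236), 18.1% of its exon bases are shared with other genes, and the call was lost under 8 alternatives, among them leaving out PBS replicate 1 and scaling by library totals, with a log2 fold change of 0.03.

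**Figure D4:**
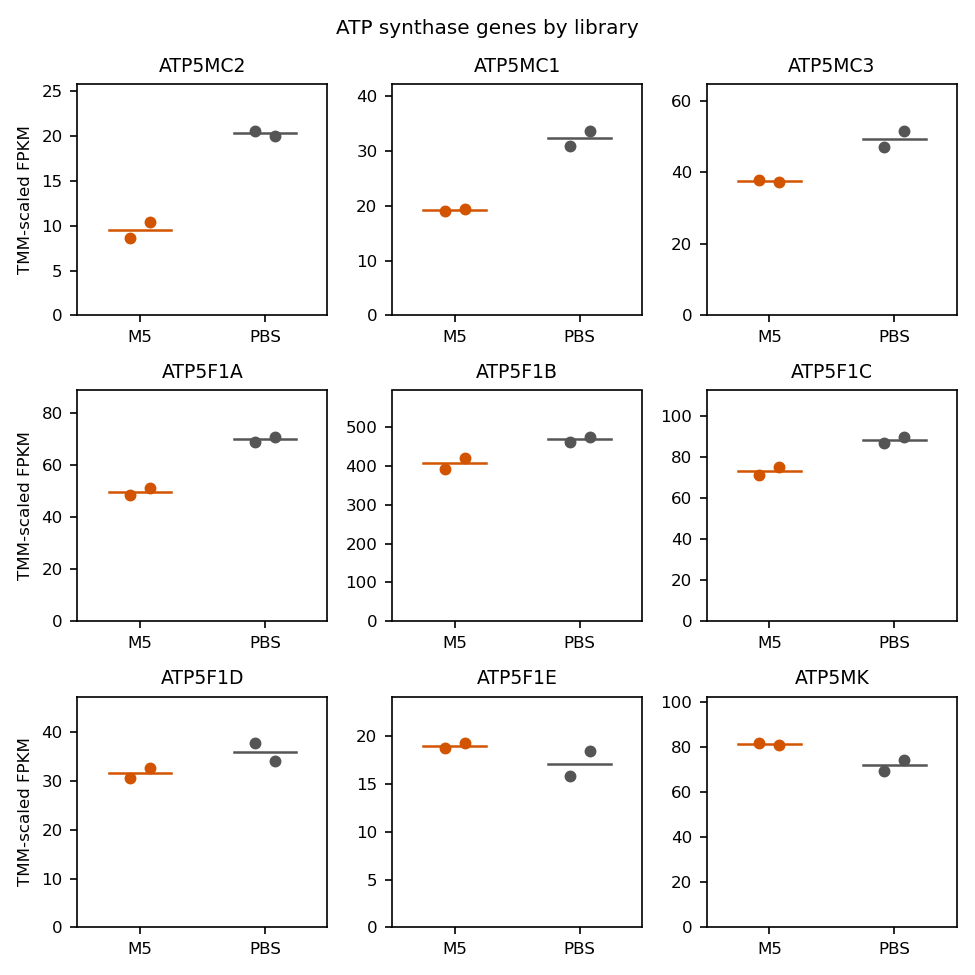
TMM-scaled FPKM (vertical axis from 0) of 9 ATP synthase genes in each M5 and PBS library; points are libraries and lines are group means. ATP5MC2 lies at 8.59 and 10.4 in M5 against 20.6 and 20.02 in PBS, and ATP5MK is the only one of these genes called higher in M5.

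Complex by complex, the summed level of the nuclear genes was lower in both M5 libraries than in both PBS libraries for each complex. For complex I the sums were 678 and 664 in M5 against 749 and 776 in PBS. For complex II they were 71.6 and 72.5 in M5 against 79.9 and 84.3 in PBS. SDHA and SDHB reached at most 0.584 and 0.156 in any library, so this sum is in effect that of SDHC and SDHD. Only SDHD fell, with a mean of 21.2 in M5 against 33.0 in PBS, whereas SDHC had 50.4 in M5 against 48.4 in PBS. Complex III gave 162 and 173 in M5 against 200 and 208 in PBS, complex IV 411 and 443 in M5 against 479 and 486 in PBS, and complex V 796 and 838 in M5 against 949 and 981 in PBS. The M5 means were 88.0%, 87.8%, 82.2%, 88.6% and 84.6% of the PBS means, in the order of the complexes. Complex III had the lowest of these percentages but the median nearest to zero, and differences between complexes were not tested.

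The mitochondrial genome encodes 7 subunits of complex I, 1 of complex III, 3 of complex IV and 2 of complex V. The rise of MT-ND6 and the fall of MT-ND2 were its widest differences among genes called. MT-ND6, the only one of these genes transcribed from the light strand (ENSG00000198695, mitochondrial DNA 14149 to 14673 on the minus strand), was at 1086 and 1007 in M5 against 744 and 674 in PBS. Both M5 libraries were well above both PBS libraries (log2 fold change 0.56, SE 0.06, edgeR adjusted p = 2.01e-07), and the rise was called under each alternative tried, with log2 fold changes from 0.38 to 0.66. Its neighbours on the other strand did not rise: MT-ND5 was at 1386 and 1384 in M5 against 1395 and 1297 in PBS (log2 fold change 0.04, edgeR adjusted p = 0.504), and MT-CYB was at 2279 and 2505 in M5 against 2708 and 2568 in PBS (log2 fold change -0.14, edgeR adjusted p = 0.0305). The ratio of MT-ND6 to MT-ND5 was 0.784 and 0.727 in M5, against 0.533 and 0.520 in PBS. That of MT-ND6 to MT-CYB was 0.477 and 0.402 in M5, against 0.275 and 0.263 in PBS. Because the kit does not mark strand, reads of MT-ND6 mRNA and of RNA from the opposite strand over the same bases cannot be told apart, and the human MT-ND6 mRNA is known to lack the long poly(A) tail of the others, although the labels name polyadenylated RNA; the part of either in the rise was not tested.

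The other complex I genes of the mitochondrial DNA moved in both directions, with a median of 0.02 over the 7. MT-ND2 was at 1510 and 1708 in M5 against 2150 and 1981 in PBS, log2 fold change -0.36 (SE 0.06, edgeR adjusted p = 4.23e-05), and its fall was called under each alternative. MT-ND1, transcribed just upstream of it, was at 1406 and 1466 in M5 against 1318 and 1233 in PBS, a rise of 0.17 (SE 0.05, edgeR adjusted p = 0.00945). The groups were apart for both genes, but the rise of MT-ND1 was lost with library totals and without PBS replicate 2, and was -0.01 with TPM totals. MT-ND3 fell by 0.15 (SE 0.05), and its call was lost without either PBS library. MT-ND4, MT-ND4L and MT-ND5 were not called. MT-ND4L was at 638 and 471 in M5 against 521 and 574 in PBS, so the M5 libraries lay on either side of PBS: its log2 fold change was 0.22 without M5 replicate 2 and -0.21 without M5 replicate 1, each past the threshold. The genes of complexes III, IV and V all had log2 fold changes below zero. MT-CO3 fell by 0.20, with 5371 and 6117 in M5 against 6710 and 6510 in PBS, and MT-CO2 fell by 0.17, with 6049 and 6596 in M5 against 7250 and 6933 in PBS, and both calls were lost without PBS replicate 1. MT-CO1, the catalytic subunit of complex IV and the most abundant of all members, was at 7418 and 8075 in M5 against 8138 and 7742 in PBS, with overlapping groups and no call. MT-ATP6, the channel through which protons reach the c ring, fell by 0.12 (SE 0.05, edgeR adjusted p = 0.0466), a call lost under 11 alternatives, M5 replicate 1 or either PBS library left out among them, and the call of MT-CYB was lost without each of these libraries too.

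**Figure D5:**
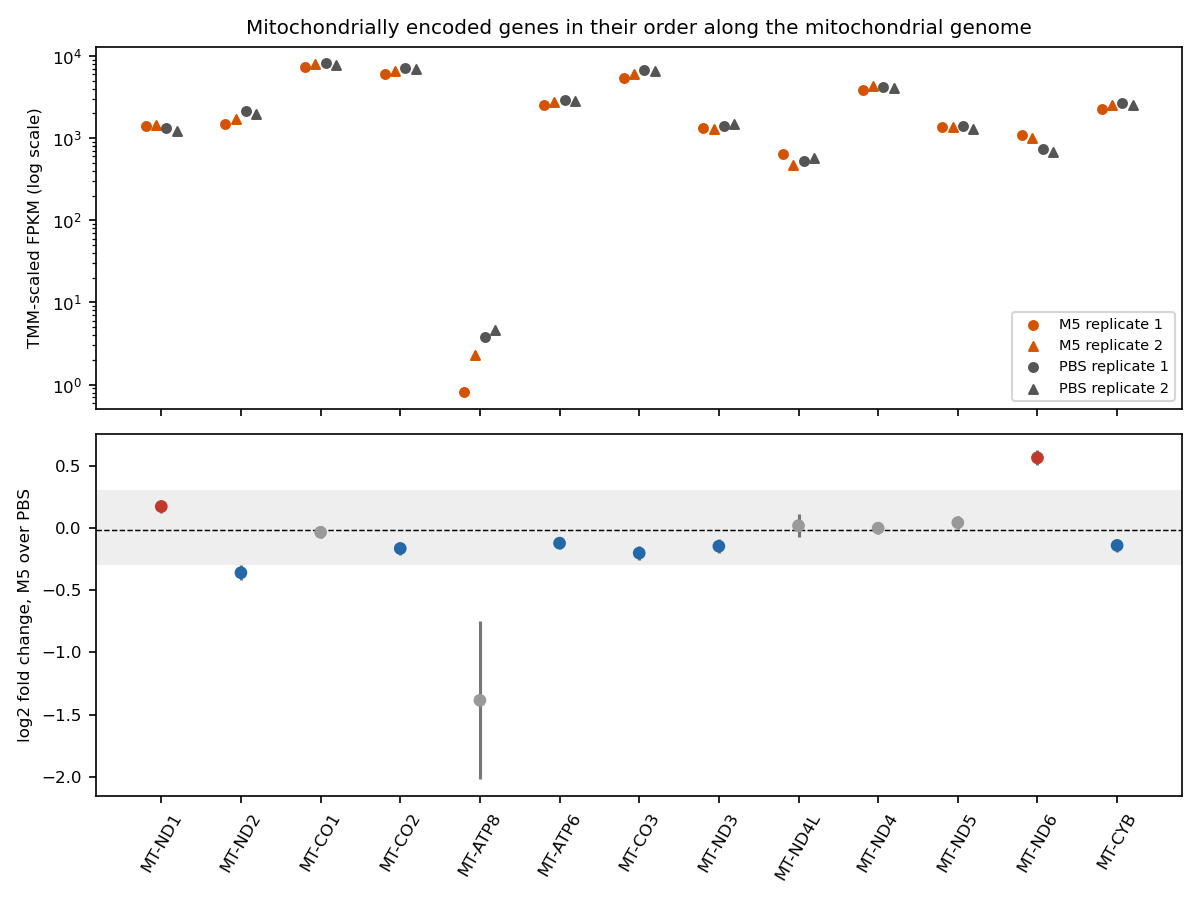
Upper panel: TMM-scaled FPKM (log axis) of the 13 mitochondrial genes in each library, in genome order. Lower panel: log2 fold change of M5 over PBS with its standard error; the grey band spans the quartiles of all tested genes. MT-ND6 stands at 0.56 and MT-ND2 at -0.36, and MT-ATP8 has the largest error.

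MT-ATP8 differed from the other mitochondrial genes in its level. It had 3 and 9 counts in M5 against 13 and 16 in PBS, where MT-ATP6, encoded on the same mRNA, was at 2559 and 2722 scaled FPKM in M5 against 2925 and 2826 in PBS. The log2 fold change of MT-ATP8 was -1.38 with an SE of 0.63 and did not pass (edgeR adjusted p = 0.0716), except without M5 replicate 2 and with 4 alternative scalings or tests. Its coding sequence runs from 8366 to 8572 on the plus strand of mitochondrial DNA, and its last 46 bases, 22.2% of 207, are also the start of MT-ATP6. The sequence from the GENCODE 29 transcripts (GRCh38, chrM:8366-8572) is shown to make this overlap visible, with the shared bases in capitals; its part in the low count was not tested:
MT-ATP8: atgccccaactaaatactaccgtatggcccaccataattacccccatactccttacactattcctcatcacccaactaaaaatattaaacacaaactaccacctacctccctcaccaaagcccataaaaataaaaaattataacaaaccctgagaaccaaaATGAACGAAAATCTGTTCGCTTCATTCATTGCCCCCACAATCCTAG

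How reads over such shared bases were counted is not given in the sources used here. Several mitochondrial genes also have copies in nuclear DNA that are themselves in the tables. MTND2P28, a copy of MT-ND2, had 1718 and 1908 counts in M5 against 2235 and 2478 in PBS, and MTATP6P1 had 2755 and 2740 in M5 against 2561 and 2898 in PBS. Adding the counts of these copies to their mitochondrial genes, an alternative chosen after seeing the data, gave MT-ND2 a log2 fold change of -0.37 and MT-ATP6 one of -0.12 (edgeR adjusted p = 0.0421).

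The nuclear genes of the pathway are known targets of the factors NRF1 and GABP (also called NRF2, of the ETS family), which bind near the start of many respiratory genes. Promoters of 250 bases before the RefSeq gene start were found for 64 of the 81 nuclear subunit genes. An NRF1-type motif (GCGCA, any base, then GCGC) was searched on both strands. At least 1 promoter held it in 14 of the 64 genes, and 5.08% of all 35116 promoters did. For the ETS-type letters CCGGAAGT these values were 12 of the 64 genes and 3.42% of all promoters. A gene can have several promoters and counts if any of them matches. Shares of genes and of promoters are therefore unlike, and no enrichment is read from them. The motifs were spread over genes that fell and genes that did not. Of 26 genes called lower that have a promoter 5 held the NRF1-type letters, and of 20 such tested genes not called lower 4 did. The motifs can overlap by no more than an end base, and for the ETS-type letters the counts were 4 of 26 and 5 of 20. A match is a description of the letters, not a binding site. The promoters of 4 genes with different responses are shown, with motif letters in capitals: SDHD (fell, both motifs; chr11:112086623-112086872, plus strand), ATP5MC1 (fell, neither motif; chr17:48892537-48892786, plus strand), COX7B (fell, neither; chrX:77899218-77899467, plus strand) and ATP5MK (rose, ETS-type; chr10:103396476-103396725, minus strand), all from RefSeq on GRCh38.p14 and written in the direction of transcription.
SDHD: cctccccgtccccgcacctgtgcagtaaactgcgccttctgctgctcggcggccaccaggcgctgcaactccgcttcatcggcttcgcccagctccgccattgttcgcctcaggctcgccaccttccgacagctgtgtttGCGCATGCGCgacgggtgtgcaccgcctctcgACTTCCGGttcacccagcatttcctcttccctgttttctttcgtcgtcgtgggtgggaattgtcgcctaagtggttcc
ATP5MC1: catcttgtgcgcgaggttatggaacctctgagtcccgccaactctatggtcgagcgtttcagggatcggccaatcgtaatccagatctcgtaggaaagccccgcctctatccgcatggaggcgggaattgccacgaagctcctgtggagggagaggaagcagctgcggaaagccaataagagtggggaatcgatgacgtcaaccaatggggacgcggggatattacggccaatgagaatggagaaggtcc
COX7B: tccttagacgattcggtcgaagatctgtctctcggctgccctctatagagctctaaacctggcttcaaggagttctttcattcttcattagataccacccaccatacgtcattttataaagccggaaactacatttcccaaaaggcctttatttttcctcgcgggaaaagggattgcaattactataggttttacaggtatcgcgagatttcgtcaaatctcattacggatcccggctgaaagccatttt
ATP5MK: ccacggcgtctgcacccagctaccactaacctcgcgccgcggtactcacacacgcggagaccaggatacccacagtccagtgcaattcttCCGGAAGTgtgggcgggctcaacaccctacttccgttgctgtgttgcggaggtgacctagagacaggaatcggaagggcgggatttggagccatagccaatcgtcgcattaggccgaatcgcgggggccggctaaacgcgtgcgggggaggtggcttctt

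The genes that build and supply the complexes were described by lists chosen for the pathway. Of 48 tested assembly factors 25 fell and 1 rose, with a median of -0.29, against 27.1% lower among all tested genes. For complex III 4 of 5 tested factors fell, for complex IV 10 of 17 fell and 1 rose, for complex I 8 of 19 fell, for complex V 2 of 4, and for complex II 1 of 3. COX15, which makes the heme A of complex IV, was at 4.04 and 4.29 in M5 against 7.95 and 8.08 in PBS, log2 fold change -0.94 (SE 0.09, edgeR adjusted p = 7.49e-08). UQCC2, a complex III assembly factor, fell by 0.81, with 3.75 and 4.31 in M5 against 7.45 and 6.66 in PBS. NUBPL, which helps to load iron-sulphur clusters into complex I, fell by 0.79, with 2.21 and 2.41 in M5 against 3.92 and 4.10 in PBS. ATPAF1, a chaperone of the F1 head, fell by 0.65, with 5.88 and 6.41 in M5 against 9.65 and 9.61 in PBS. In each of these 4 genes, which were named for being called with large changes, the groups did not overlap.

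Electron carriers and ubiquinone synthesis fell in 10 of 14 tested genes and rose in 1, with a median of -0.45. Among all tested genes 27.1% were called lower and 28.8% higher. COQ3, a methyltransferase of ubiquinone synthesis, fell by 0.76, with 6.92 and 8.38 in M5 against 12.2 and 13.7 in PBS. The gene that rose was COQ10B, a ubiquinone-binding protein, at 13.3 and 16.0 in M5 against 6.40 and 6.66 in PBS (log2 fold change 1.17, SE 0.11, edgeR adjusted p = 3.08e-08). Of 15 genes of mitochondrial DNA transcription and replication 8 fell and 1 rose. TFB1M, an rRNA methyltransferase of the mitochondrial ribosome, fell by 0.88, with 4.02 and 4.00 in M5 against 7.08 and 7.68 in PBS. Of 19 genes of mitochondrial RNA processing and stability 9 fell and 2 rose, with a median of -0.14. SLIRP, which stabilises mitochondrial mRNAs together with LRPPRC, fell by 0.39, with 18.2 and 16.9 in M5 against 21.7 and 24.3 in PBS.

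The counts of the next lists stand beside 27.1% lower and 28.8% higher among all tested genes. The citric acid cycle was mixed, with 11 lower and 5 higher of 19 tested. FH, the fumarase that acts after complex II, fell by 0.60, with 14.0 and 15.5 in M5 against 21.9 and 22.7 in PBS, whereas IDH2, the NADP-dependent isocitrate dehydrogenase, rose by 0.54, with 9.60 and 10.0 in M5 against 6.57 and 6.94 in PBS. Regulators of mitochondrial biogenesis rose in 4 and fell in 5 of 11. NFE2L1, a membrane-bound factor that induces proteasome genes, had the largest change of this list, at 112 and 105 in M5 against 54.8 and 53.9 in PBS (log2 fold change 1.00, SE 0.05, edgeR adjusted p = 1.21e-11). PPARGC1B, a coactivator of respiratory genes, fell by 0.48, with 2.68 and 2.28 in M5 against 3.48 and 3.45 in PBS, and SIRT1, a deacetylase that acts on such coactivators, rose by 0.35, with 10.7 and 11.9 in M5 against 8.47 and 9.24 in PBS, a call lost with TPM totals and with limma at either pseudocount. Of 9 tested carriers and uncoupling genes 4 fell and 2 rose. SLC25A5, an ADP/ATP carrier, fell by 0.32, with 235 and 242 in M5 against 293 and 304 in PBS. SLC25A27 fell by 1.30 at low levels, with 0.508 and 0.632 in M5 against 1.29 and 1.53 in PBS. VDAC2 rose by 0.26, with 101 and 109 in M5 against 86.8 and 88.3 in PBS. The VDAC2 call was lost with library totals, TPM totals and limma at either pseudocount.

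Genes of mitochondrial quality control and dynamics did not share the low median, at -0.01, with 5 higher and 4 lower of 14. Among all tested genes 28.8% were called higher and 27.1% lower. BNIP3, a receptor for the removal of mitochondria by autophagy, was at 16.3 and 18.7 in M5 against 4.27 and 4.26 in PBS, the widest difference among all genes named here (log2 fold change 2.04, SE 0.09, edgeR adjusted p = 8.84e-13). Its relative BNIP3L was at 16.2 and 17.9 in M5 against 8.39 and 8.85 in PBS (log2 fold change 0.98, SE 0.08, edgeR adjusted p = 4.12e-09). OMA1, a stress-activated protease of the inner membrane, was at 1.32 and 1.35 in M5 against 2.61 and 3.20 in PBS (log2 fold change -1.12, SE 0.19, edgeR adjusted p = 5.81e-05). No library of one group reached the other for these 3 genes, which were named for being called with the largest changes of the list. Mitochondrial mass, protein and oxygen use are not part of these data.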

How the data were processed

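Per the file headers, each of the 4 deposited files holds a read count and an FPKM value per Ensembl gene for 1 library. The authors' deposited FPKM equal the count divided by gene length and by the file's own total: count over FPKM gave gene lengths whole to within 3.1e-08 bp. HISAT2, HTSeq 0.13.5 and GRCh38 are named in the submitters' processing notes, with no roles. No source used here gives the annotation release, whether counting used strand, or how multiply aligned reads were handled. Groups and replicate numbers came from the sample titles.

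Counts of the 10809 genes with a mean of at least 1 FPKM were tested with edgeR 4.0.16 (glmQLFit and glmQLFTest, TMM, two-sided, R 4.3.3). Benjamini-Hochberg adjustment ran over all of them, and a member is called at an adjusted p under 0.05. Each standard error was taken as the log2 fold change over the root of its F statistic. Scaled FPKM use the TMM-scaled library size. The test was tried on simulated counts first. A chi-square test of the replicate counts had a median per gene of 1.75 in M5 and 1.00 in PBS, against 0.455 from sampling alone, so no pair was treated as copies of 1 library. Exon overlaps and positions came from GENCODE 29 on GRCh38, and promoters from RefSeq on GRCh38.p14. The gene lengths deduced from the files differ from GENCODE 29 for some genes, so the counts may rest on other gene models.

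Named members are all mitochondrial genes, up to 3 largest falls and rises of each complex, the most and least abundant tested gene of each complex, tissue isoform pairs, the SDH genes, the members whose call was lost most often and up to 3 called genes of each other list. ATP5MC3, ATP5F1C, ATP5F1D, ATP5F1E, ATP5PB, ATP5PD, ATP5MJ, NDUFS8, NDUFV1, UQCRFS1, NDUFB10, COX5B and NDUFA4 were chosen after their values were seen. The members and the lists were chosen with earlier results of these data known, so none is independent evidence of a direction. The gene-level result of 1 nuclear member is not reported here, though it enters the counts and medians. Alternatives used DESeq2 1.42.0 and limma 3.58.1.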

Additional observations from a re-analysis of the deposited data

How the results depend on the processing

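Of the 40 called members, 19 lower calls and 1 higher call, that of MT-ND6, were lost under none of the alternatives tried. MT-ATP8 had at most 16 counts in a library, and 22 nuclear genes were too low to test. With 2 libraries a group the spread rests on few samples, and a left-out library leaves a lone one that is assumed to vary like the other group. The members called higher, 3 in the report, numbered 1 with library totals, TPM totals and limma at either pseudocount, and this 1 was mitochondrial. All tested genes called higher numbered 2201 with library totals and 2027 with TPM totals, against 3114. Called lower were 58 members, 48 of them nuclear and 10 mitochondrial, with TPM totals, 47 nuclear with limma on log2(FPKM + 1), and 23 members with no filter, 1 of them mitochondrial. Of all tested genes 43.8% were called lower with TPM totals and 38.1% with limma on log2(FPKM + 1). With no filter 9.99% were, against 27.1% in the fit reported above. Of nuclear genes 0 were called higher, ATP5MK included, with library totals, TPM totals, a mean of at least 5 FPKM, DESeq2, either limma fit and an adjusted p under 0.01. The mitochondrial genes called lower were 3 at an adjusted p under 0.01 and 1 with the gene length offset. Of all tested genes 20.7% and 26.3% were called lower under these settings. Of the other lists, 10 genes were called higher with library totals and 7 with TPM totals and with either limma fit, against 21. The cause of these shifts was not tested.

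The values showed no pairing by replicate number: the deviations of same-numbered libraries correlated at -0.0207. With 2 libraries a group both replicate numbers give the same value. It cannot tell whether same-numbered libraries were made together, and the numbers were treated as names. With a replicate block 32 nuclear genes were called lower and 2 higher, and 5 mitochondrial genes lower. Under it UQCRFS1 was called lower, at -0.16, and ATP5F1E higher, at 0.16, neither of them called without it.

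Leaving out 1 library gave 23 to 41 members called lower, 20 to 33 nuclear and 1 to 8 mitochondrial ones, and 0 to 2 nuclear and 1 to 3 mitochondrial ones called higher. Medians relative to all tested genes then ran from -0.24 to -0.18 for all nuclear genes, -0.23 to -0.16 for complex I, -0.27 to -0.0995 for complex III, -0.22 to -0.11 for complex IV and -0.30 to -0.22 for complex V. With a mean of at least 5 FPKM they were -0.23 for all nuclear genes, -0.24 for nuclear complex I and -0.32 for nuclear complex V. Nuclear complex I was at -0.20 with limma on log2(FPKM + 1) and -0.19 with the gene length offset. With no filter nuclear complex II was at -0.22, complex IV at -0.095 and complex V at -0.20, and mitochondrial complex I at 0.087. With the gene length offset mitochondrial complex I was at 0.099 and mitochondrial complex IV at -0.076. The log2 difference of the mitochondrial to nuclear ratio was 0.12 for sums and -0.12 for medians over genes.

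Among called members MT-ND1 alone turned its direction, at -0.0101 with TPM totals. The other changes of direction were in members that were not called. MT-ND4 was 0.0051 with median-of-ratios size factors and DESeq2, 0.0006 with TMM over nuclear genes, 0.0248 with no filter and 0.0654 with the gene length offset. MT-ND4L was -0.13 with library totals, -0.16 with TPM totals, -0.0145 with a mean of at least 5 FPKM and -0.15 with either limma fit. MT-ND5 was -0.11 with library totals and either limma fit and -0.14 with TPM totals. SDHC was -0.0936 with library totals, -0.12 with TPM totals and -0.0904 and -0.092 in the limma fits. With the gene length offset MT-CO1 was 0.0279, NDUFS5 0.0114 and COX8A 0.0179. ATP5F1E was -0.0283 with TPM totals. Leaving out 1 library gave -0.0765 to 0.0738 for MT-ND4, -0.21 to 0.22 for MT-ND4L, -0.0102 to 0.0951 for MT-ND5 and -0.0982 to 0.0296 for MT-CO1. The ranges were -0.99 to 0.0097 for NDUFA2, -0.0104 to 0.13 for SDHC, -0.33 to 0.0031 for UQCRFS1, -0.38 to 0.22 for UQCRHL and -0.0928 to 0.0287 for COX4I1. They were -0.47 to 0.11 for COX6A1, -0.20 to 0.0337 for COX8A and -0.15 to 0.0352 for ATP5PO.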
